A study of Mus musculus with 8 samples.

Results

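The cell cycle and proliferation genes described here are 40 mouse genes chosen by symbol for their textbook roles in cell division. All 40 were found, each in 1 row, among the 56465 features of the table. They comprise 5 genes for the D cyclins and their kinases, 4 genes of the G1 to S transition, 10 S-phase genes, 18 mitotic genes and 3 genes for inhibitors of the cyclin-dependent kinases. RNA of whole retinas was sequenced from 2 groups of C57Bl/6J mice. The WT group held 4 wild-type retinas, and the TG group held 4 retinas of mice that express human transferrin, the iron carrier of plasma. Every retina of both groups had been detached by injecting 10 µl of sodium hyaluronate beneath it and was collected 4 days later, so the comparison is of 2 genotypes after the same injury and no attached retina entered it. The WT retinas came from 3 males and 1 female (3 right eyes, 1 left), and the TG retinas from 2 males and 2 females (2 right eyes, 2 left). The promoter that drives the transgene and the age of the mice were not given in the sources used here, and no transcript of human transferrin was measured here as a check of the genotype labels. Whether the retinas of a group are from separate mice is not stated in the labels, so p-values measure only how far these samples spread.

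A cell enters division when D cyclins and their kinases, followed by cyclin E and its kinase, inactivate the retinoblastoma protein and release the E2F factors. E2F then drives the genes of DNA synthesis, such as the helicase subunits encoded by the Mcm genes, the sliding clamp Pcna, and the enzymes that supply deoxynucleotides (Rrm1, Rrm2 and Tyms). The mitotic genes follow later in the cycle, and the inhibitors encoded by Cdkn1a, Cdkn1b and Cdkn1c hold the kinases in check. Neurons of the adult retina are postmitotic, while Mueller glia, microglia, vascular cells and invading immune cells can divide after injury. Several replication genes, Pcna among them, also serve in DNA repair and need not mark dividing cells.

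The 2 classes of gene that the comparison below sets against each other, S-phase and mitotic, are known to carry different promoter elements. Promoter windows from RefSeq (GRCm38.p6), running from 250 bases before to 50 bases after each start, matched 32 of the 40 genes in 35 windows. They were searched on both strands for the letters TTTGAA or TTCGAA (the cell cycle genes homology region, CHR), CCAAT (the NF-Y box) and TTTNNCGC (an E2F site). None of these patterns lies inside another, although neighbouring matches can share bases. CHR letters were in 12 of 15 mitotic windows (80%), in 2 of 10 S-phase windows (20%, from 9 genes) and in 19.2% of all 32851 windows. E2F letters were in 5 of 10 S-phase windows (50%), in 1 of 15 mitotic windows (6.67%, that of Cdk1) and in 5.17% of all windows. CCAAT did not separate the classes, being in 9 of 10 S-phase windows (90%), 14 of 15 mitotic windows (93.3%) and 37.4% of all. A match is a description of the letters only, not evidence of a bound factor. The stretches that follow show the contrast for 4 mitotic and 2 S-phase genes, in gene orientation, from 200 bases before the RefSeq start up to the start or to the first base that GENCODE M21 or the table counts as the gene. Capitals mark the matches. Cdk1 (chr10:69352940-69353112, minus strand) carries CHR, CCAAT and E2F letters. Mki67 (chr7:135716419-135716579, minus strand) and Cdc20 (chr4:118437353-118437543, minus strand) carry CHR and CCAAT letters. Birc5 (chr11:117849037-117849236, plus strand) carries none of the 3 in this stretch. Mcm5 (chr8:75109309-75109508, plus strand) and Mcm6 (chr1:128359706-128359905, minus strand) carry CCAAT and E2F letters.
Cdk1: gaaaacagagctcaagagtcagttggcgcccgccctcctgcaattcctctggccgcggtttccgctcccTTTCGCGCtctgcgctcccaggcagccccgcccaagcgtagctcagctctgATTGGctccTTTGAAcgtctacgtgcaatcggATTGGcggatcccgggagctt
Mki67: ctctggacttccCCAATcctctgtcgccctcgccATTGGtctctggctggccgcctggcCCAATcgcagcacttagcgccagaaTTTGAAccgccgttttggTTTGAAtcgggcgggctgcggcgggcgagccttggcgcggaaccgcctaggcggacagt
Cdc20: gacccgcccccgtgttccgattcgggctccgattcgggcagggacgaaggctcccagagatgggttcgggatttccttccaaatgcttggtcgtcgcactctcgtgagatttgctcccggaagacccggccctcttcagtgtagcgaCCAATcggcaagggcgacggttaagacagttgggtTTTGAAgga
Birc5: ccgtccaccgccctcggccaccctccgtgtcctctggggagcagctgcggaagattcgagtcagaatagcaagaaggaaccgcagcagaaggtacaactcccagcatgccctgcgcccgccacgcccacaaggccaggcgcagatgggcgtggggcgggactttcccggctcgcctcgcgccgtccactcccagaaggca
Mcm5: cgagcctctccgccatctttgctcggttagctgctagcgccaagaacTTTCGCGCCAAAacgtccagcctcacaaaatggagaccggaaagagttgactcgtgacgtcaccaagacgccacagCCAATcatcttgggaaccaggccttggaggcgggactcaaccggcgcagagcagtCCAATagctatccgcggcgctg
Mcm6: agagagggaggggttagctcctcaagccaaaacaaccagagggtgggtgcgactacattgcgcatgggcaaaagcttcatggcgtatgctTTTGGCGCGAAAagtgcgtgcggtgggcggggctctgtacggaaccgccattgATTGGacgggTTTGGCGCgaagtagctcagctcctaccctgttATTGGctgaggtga

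**Figure D1:**
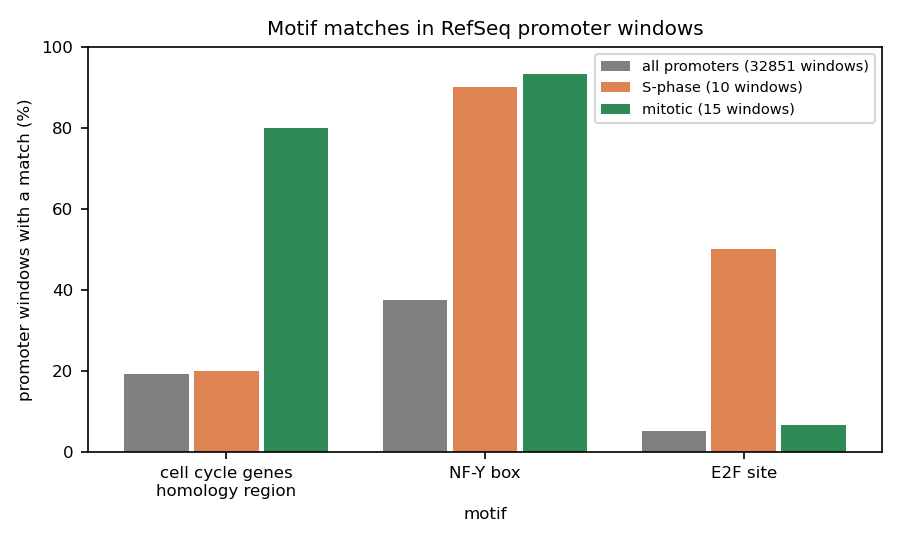
Share of RefSeq promoter windows that hold CHR, CCAAT or E2F letters, in percent, for the mitotic genes, the S-phase genes and all windows of the table. CHR letters are in 80% of mitotic and 20% of S-phase windows, and E2F letters in 6.67% and 50%.

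The libraries held 68433927 to 75866423 reads in WT and 61535690 to 70540242 in TG. Values are normalized reads, that is, read counts scaled by the authors so that libraries can be compared. A value of 0 means that no read was counted. The floor was set at 3 reads, worth 2.64 to 3.70 normalized reads, and a 0 does not show absence below that level. Mitochondrial transcripts took 21.9% to 27.5% of the WT values and 20.4% to 22.3% of the TG values. The label retina held, since 8 rod photoreceptor genes summed to between 2774787 and 4206117 normalized reads in every library. Lens genes stood apart in WT 3 and TG 6, at a summed 24518 and 20125 normalized reads. TG 5 was next, at 5182, against 48.6 to 775 in the other libraries. Pigment epithelium genes stood apart in WT 3 and TG 2, at 92224 and 58147 against 11185 to 30077. That list holds Rlbp1, also counted among the Mueller glia genes, which made up 24774 of the 30077 in TG 8. Red blood cell genes were low in WT 4, at 2635 against 14470 to 39043.

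No member of the group passed the test between TG and WT. The test was limma on log2(normalized value + 1) over 19798 features whose mean reached 10 normalized reads, with a Benjamini-Hochberg adjusted p under 0.05 as the threshold. Its fold changes are on that log2 scale, where those of low genes depend on the added 1. Of the 40 genes, 39 entered it, and Bub1, a checkpoint kinase of the kinetochore, fell below the minimum. It called 0 of the 39, where it called 0.0101% of all features (1 higher and 1 lower in TG, 0.00505% each), and the limma adjusted p of the 39 ran from 0.918 to 0.998. An unadjusted p under 0.05 was found for 3 of the 39 (7.69%), namely Cdk1, Birc5 and Cdkn1b, beside 4.64% of all features. The groups did not overlap for 2 of the 39 (5.13%), Cdk1 and Cdkn1b, beside 2.53% of all features (1.36% with TG above WT and 1.16% with TG below). On the recovered reads, edgeR and DESeq2 also called 0 of the 39, beside 0.0101% and 0.0808% of all features. Each gave an unadjusted p under 0.05 to the same 3 genes, beside 4.12% of all features with edgeR and 5.34% with DESeq2. In the direction of the estimates, 25 were higher and 14 lower in TG with a median log2 fold change of 0.15, against -0.017 over all features.

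**Figure D2:**
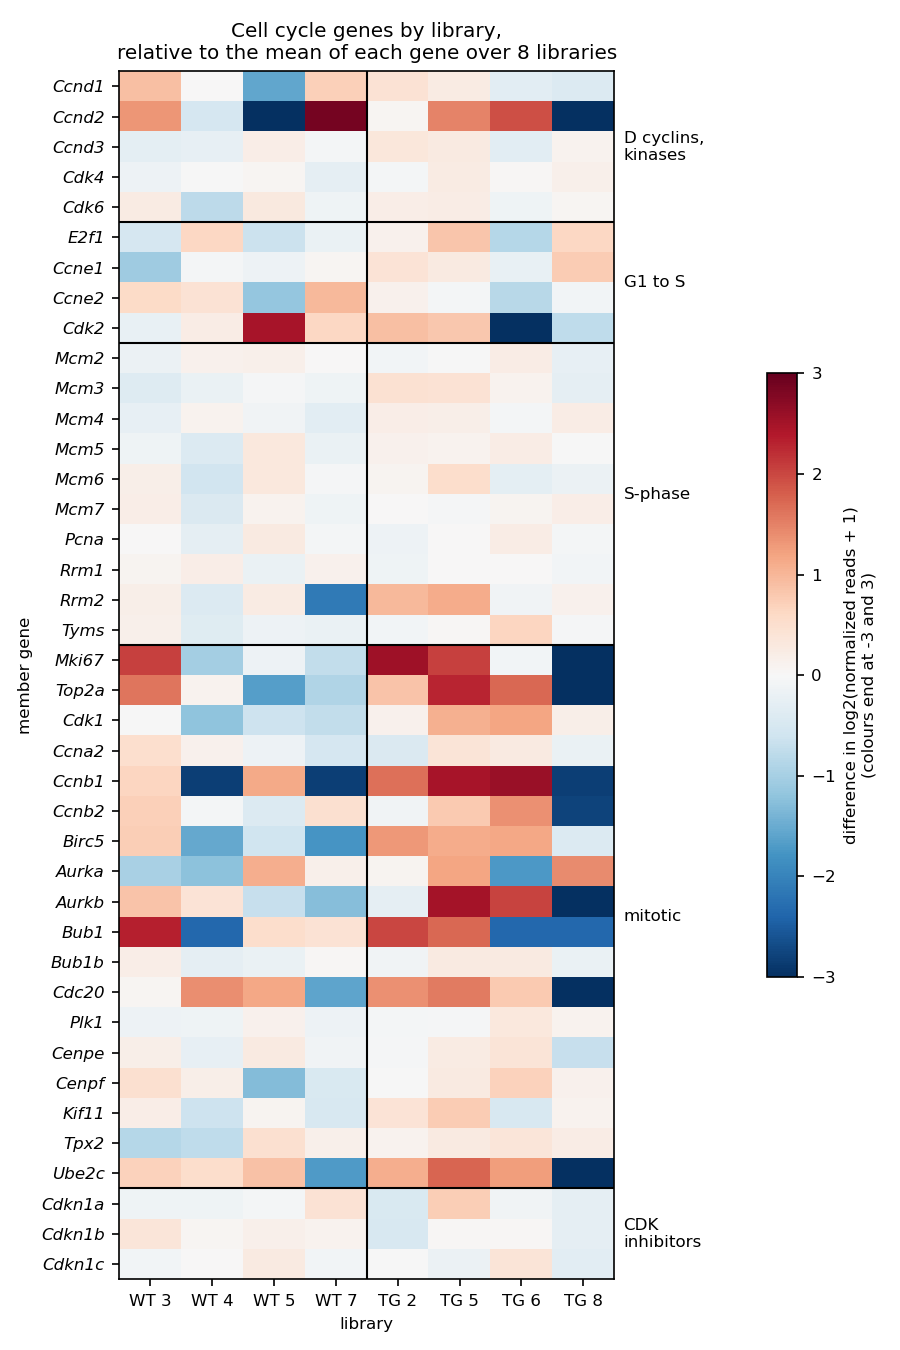
Each cell is a gene's log2(normalized value + 1) in 1 retina minus its mean over the 8 retinas, with the 40 genes in rows grouped by role and the 8 retinas in columns; colours end at -3 and 3. The S-phase rows are pale apart from Rrm2, and the mitotic rows vary most, with 7 of the 18 genes listed at 0 in TG 8.

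The D cyclins and their kinases, which receive growth signals in early G1, had no member whose groups lay apart. In the sentences that follow, values stand in the order WT 3, WT 4, WT 5, WT 7 and then TG 2, TG 5, TG 6, TG 8. Ccnd1, which encodes cyclin D1, was at 470, 255, 84.5 and 417 normalized reads in WT and 343, 299, 201 and 189 in TG. The TG values lay inside the WT range, which was set by a high WT 3 and a low WT 5. Ccnd3, encoding cyclin D3, was at 874, 913, 1228 and 1041 in WT and 1361, 1308, 868 and 1150 in TG. Cdk4, a kinase that binds the D cyclins, was at 1592, 1775, 1866 and 1474 in WT and 1725, 2098, 1812 and 1995 in TG. Both overlapped between groups, with TG 6 the lowest of all for Ccnd3 and TG 5 and TG 8 the highest for Cdk4. Their log2 fold changes were 0.20 ± 0.19 (SE) for Ccnd3 and 0.19 ± 0.14 for Cdk4, and that of the partner kinase Cdk6 was 0.19 ± 0.29, from 119 to 256 normalized reads in WT and 190 to 243 in TG. Ccnd2, encoding cyclin D2, was low and uneven, from 0 to 85.8 in WT and 0 to 44.5 in TG, and its estimate of -0.043 ± 1.48 places no useful limit on a difference. Of the 5 genes, 3 were higher and 2 lower in TG, with a median of 0.19. That median was -0.031 without WT 4, with 2 of 5 higher, and 5 of 5 were higher without WT 3, WT 7 or TG 8. How strand was treated in counting was not given in the sources used here, and 18 of the 40 genes have another gene on the opposite strand in their interval. All 5 genes of this role do, such as Cdk4 with Tspan31 and Ccnd3 with Bysl, and so do Mki67, Cdc20, Ube2c and Cdkn1a.

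At the G1 to S transition the estimates went both ways. Ccne1, encoding cyclin E1, was at 66.5, 134, 126 and 146 normalized reads in WT and 186, 170, 120 and 237 in TG. TG 2, TG 5 and TG 8 lay above every WT retina and TG 6 did not, and the log2 fold change was 0.61 ± 0.34 (SE), with a 95% interval from -0.13 to 1.35. Without WT 3 it was 0.35. E2f1, the factor that activates many S-phase genes, was at 43.0, 95.7, 39.1 and 53.6 in WT and 67.4, 111, 33.3 and 94.6 in TG. WT 4 was high among the WT retinas and TG 6 was the lowest of all, so the groups overlapped widely (0.36 ± 0.49). Cdk2, the kinase that partners cyclin E, was at 13.3, 18.4, 90.9 and 24.4 in WT and 30.1, 28.2, 0 and 8.78 in TG. Its estimate of -1.55 ± 1.10 rests largely on a high WT 5 and an absent TG 6, and its interval of the genome also holds Pmel, a pigment gene, on the opposite strand. Without WT 5 the estimate was -0.98 and without TG 6 it was -0.45. Ccne2, encoding cyclin E2, ranged from 66.6 to 294 in WT and from 84.0 to 164 in TG, with a log2 fold change of -0.41 ± 0.43.

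The S-phase genes had the lowest median within-group SD of the 5 roles, 0.22 on the log2 scale. That of the inhibitors of the cyclin-dependent kinases was close, at 0.25. It was 0.43 over all features, which were not matched to the S-phase genes for level. Of the 10 genes, 8 were higher and 2 lower in TG with a median log2 fold change of 0.18. That median was 0.065 without WT 4, the retina lowest for 5 of the 10 genes, with 6 higher and 4 lower. Pcna, the sliding clamp of the replication fork, was at 6199, 5103, 7420 and 5853 normalized reads in WT and 5503, 6191, 7189 and 5851 in TG. The groups lay on top of each other, and the log2 fold change of 0.015 ± 0.14 (SE) had a 95% interval from -0.29 to 0.32. Mcm2, a subunit of the replicative helicase, was at 682, 830, 847 and 777 in WT and 718, 759, 897 and 648 in TG. The TG values reached both beyond and below those of WT (-0.058 ± 0.17).

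Mcm3 and Mcm4, which encode other subunits of the helicase, each had a TG mean above the highest WT retina. Mcm3 was at 147, 168, 190 and 177 normalized reads in WT and 268, 264, 207 and 162 in TG. Mcm4 was at 267, 345, 297 and 254 in WT and 368, 361, 308 and 371 in TG. In each, 3 TG retinas exceeded every WT retina while the other (TG 8 for Mcm3, TG 6 for Mcm4) did not, and the log2 fold changes were 0.37 ± 0.26 and 0.28 ± 0.21 (SE). The estimates were 0.22 ± 0.23 for Mcm5, 0.064 ± 0.34 for Mcm6 and 0.13 ± 0.17 for Mcm7, whose interval also holds Ap4m1 and Cops6 on the opposite strand and 3 microRNA genes.

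Among the enzymes of deoxynucleotide supply, the 2 subunits of ribonucleotide reductase differed in their estimates. Rrm2, the subunit that is made mostly in S phase (mm10 chr12:24708254-24714145), was at 42.0, 27.6, 44.4 and 7.80 normalized reads in WT and 74.5, 81.0, 34.6 and 41.0 in TG. TG 2 and TG 5 stood above all others and WT 7 below, while TG 6 and TG 8 lay within the WT range. Its log2 fold change of 1.06 ± 0.62 (SE; limma adjusted p = 0.918) was the highest of the 10, and leaving out 1 library at a time moved it between 0.53 and 1.32. Rrm1, the large subunit, ranged from 2873 to 3770 in WT and from 3014 to 3328 in TG, with a log2 fold change of -0.097 ± 0.13. Per kilobase of exon, Rrm1 stood at 302 and Rrm2 at 15.9 normalized reads over the 8 retinas. Tyms, the thymidylate synthase, was at 342, 238, 275 and 268 in WT and 287, 312, 482 and 297 in TG, and TG 6 alone exceeded the WT range (0.27 ± 0.24).

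The mitotic genes were mostly scarce and varied far more between retinas of 1 group. Of the 18, 14 had a mean under 100 normalized reads. Over the 17 tested, the median level was 15.3 normalized reads per kilobase of exon, and 13.6 without the rows of Plk1 and Bub1b. It was 81.2 for the S-phase genes. The within-group SD of the 17 mitotic genes had a median of 0.98 on the log2 scale. It was 1.34 over the 13 tested with a mean under 100, against 1.02 for the 6809 features of the whole table with a mean between 10 and 100. Of the 17 tested, 12 were higher and 5 lower in TG, with a median log2 fold change of 0.34. Both figures depended on the fit: 16 of 17 were higher with edgeR (median 0.45) and with DESeq2 (0.44), and 14 of 17 with a pseudocount of 5, while the median was 0.15 with a pseudocount of 0.5 and 0.20 with eye as a term. In a whole retina, a change in the number of dividing cells and a change of RNA in each cell cannot be told apart.

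Cdk1, the kinase that drives entry into mitosis (mm10 chr10:69336635-69352939), was at 38.9, 16.6, 25.4 and 23.4 normalized reads in WT and 43.4, 84.5, 91.4 and 44.9 in TG. Every TG retina lay above every WT retina, although TG 2 and TG 8 were close to WT 3. The mean ± SD was 26.1 ± 9.35 for the WT retinas and 66.1 ± 25.5 for the TG retinas (n = 4 each). The log2 fold change of 1.29 ± 0.51 (SE) had a 95% interval from 0.19 to 2.39. The limma adjusted p was 0.918, so the difference did not pass the test. Leaving out each library in turn gave estimates from 1.10 to 1.50.

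Birc5, which encodes the survivin subunit of the chromosomal passenger complex (mm10 chr11:117849237-117855755), was at 65.5, 12.9, 25.4 and 10.7 normalized reads in WT and 97.5, 86.3, 88.9 and 29.3 in TG. TG 2, TG 5 and TG 6 lay above every WT retina, while TG 8 was below WT 3, so the groups overlapped. Its log2 fold change was 1.59 ± 0.65 (SE; limma adjusted p = 0.918), between 1.26 and 2.10 with 1 library left out. Aurkb, the kinase of the same complex, was low in WT (3.90 to 20.5) and spread from 0 in TG 8 to 65.2 in TG 5 (0.34 ± 1.26).

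Mki67 and Top2a, common labels of dividing cells, showed no steady direction. Mki67, whose protein coats mitotic chromosomes, was at 100, 11.0, 21.1 and 13.6 normalized reads in WT and 142, 101, 22.2 and 0 in TG. WT 3, TG 2 and TG 5 were high, the other 5 retinas were low, and both the highest and the lowest value were in TG. The log2 fold change of -0.056 ± 1.32 (SE) was small beside this split. With 1 library left out it ran from -0.91 to 1.48, and it was 0.86 with DESeq2 and 0.90 with edgeR on the recovered reads. Top2a, the topoisomerase that untangles chromosomes, was at 49.1, 16.6, 4.23 and 7.80 in WT and 28.4, 78.4, 53.1 and 0 in TG. WT 3 again exceeded the other WT retinas and TG 8 was again empty (0.41 ± 1.27). The Top2a row also spans Gjd3, so its reads may not all be from Top2a.

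Ccnb1, encoding cyclin B1, the partner of Cdk1, was at 10.2, 0, 14.8 and 0 normalized reads in WT and 21.3, 38.7, 42.0 and 0 in TG. TG 2, TG 5 and TG 6 were above all WT retinas, and TG 8 shared a count of 0 with WT 4 and WT 7. The estimate was the highest of the 39 and had the widest error, 1.94 ± 1.51 (SE). It was 3.20 without TG 8. Tpx2, a spindle assembly factor, was at 52.2, 55.2, 132 and 106 in WT and 102, 115, 122 and 111 in TG. The TG retinas were tightly grouped within the wide WT range (0.49 ± 0.38).

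The remaining mitotic genes fell into a scarce and an abundant set. The ubiquitin-conjugating enzyme Ube2c and the activator of the anaphase-promoting complex Cdc20 were at 0 in TG 8 and at up to 73.1 and 77.5 normalized reads in TG 5, with estimates of -0.21 ± 1.21 (SE) and -0.51 ± 1.23. Ccnb2, encoding cyclin B2, was also lowest in TG 8, at 2.93, and highest in TG 6, at 67.9 (-0.36 ± 0.83). Aurka, the centrosomal kinase, ran the other way, with 128 in TG 8 as its highest value and 13.6 in TG 6 as its lowest (0.48 ± 0.73). Its estimate was 0.087 without TG 8 and 1.13 without TG 6. The kinetochore gene Cenpf (0.54 ± 0.54) and the spindle motor Kif11 (0.40 ± 0.40) were present in all 8 retinas, at 14.8 to 61.7 and 51.6 to 136 normalized reads. Ccna2, encoding cyclin A2, and the kinetochore motor Cenpe had group means between 277 and 299, with log2 fold changes of 0.021 ± 0.28 and -0.050 ± 0.27. Bub1, left untested, was at 0 in WT 4, TG 6 and TG 8 and reached 24.6 in WT 3.

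The rows for Plk1 and Bub1b held far more reads than those of other mitotic genes, with means of 7234 and 3095 normalized reads against at most 298 for the rest. The Plk1 row (mm10 chr7:122133041-122169884) carries the names of both Plk1, a mitotic kinase, and its neighbour Dctn5, a dynactin subunit. Its reads therefore cannot be assigned to Plk1. The row is given no level per kilobase of its own, although it entered the median over the 17 mitotic genes. It ran from 6460 to 7896 normalized reads in WT and from 6851 to 8898 in TG (0.15 ± 0.13, SE). Bub1b, a component of the spindle checkpoint, ran from 2558 to 3492 in WT and from 2649 to 3693 in TG (0.11 ± 0.16). Their within-group SD of 0.16 and 0.23 on the log2 scale was as low as that of the S-phase genes. Without these 2 rows the median log2 fold change of the mitotic genes was 0.40, with 10 of 15 higher in TG.

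**Figure D3:**
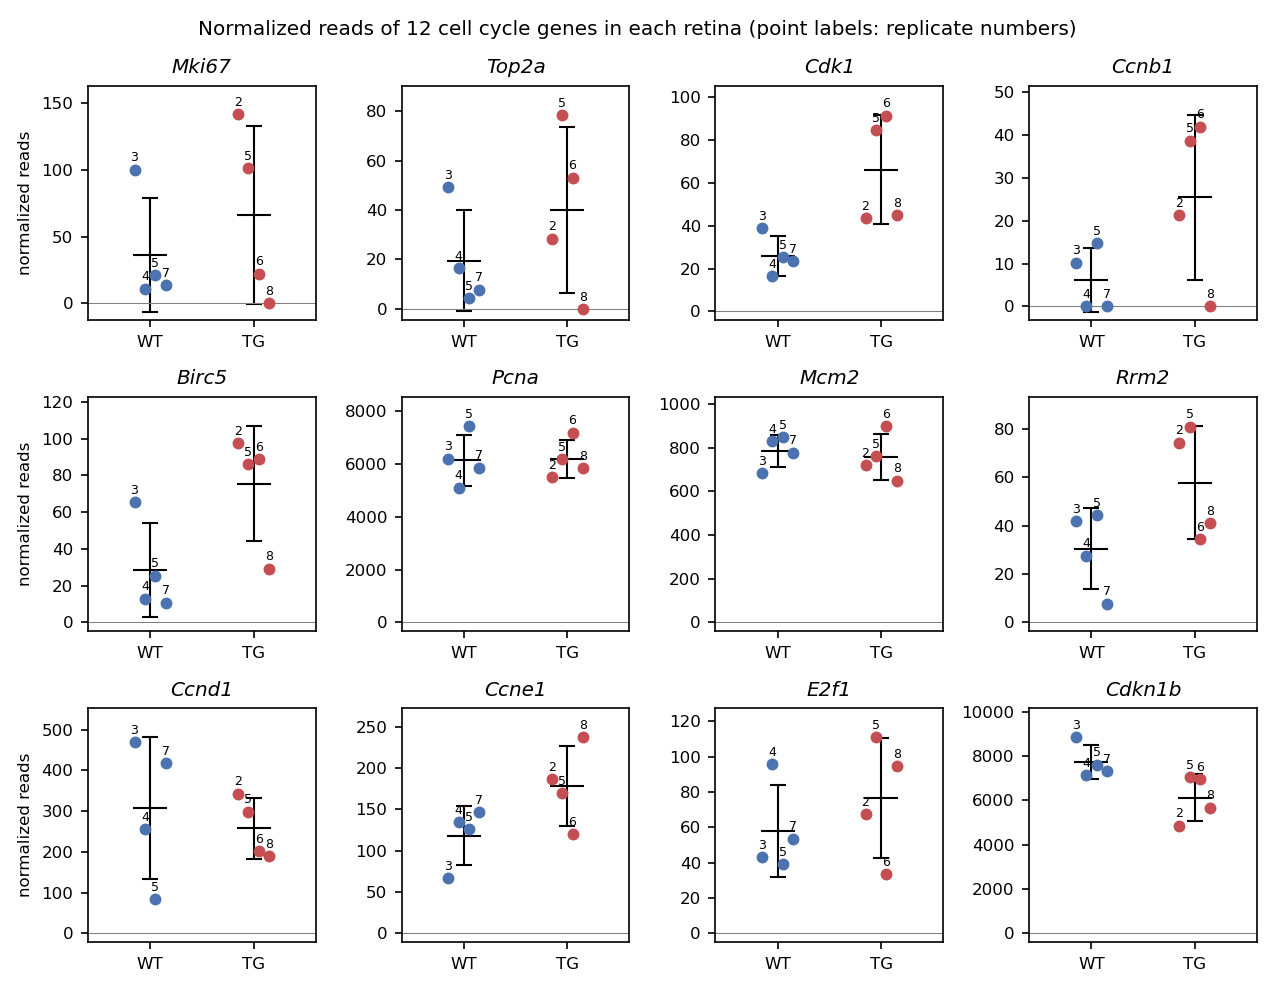
Normalized reads of 12 genes, 1 panel each, in the 4 WT and 4 TG retinas; points are retinas labelled with their replicate number, the long bar is the group mean and the whiskers 1 SD. Cdk1 separates the groups with TG above, Cdkn1b separates them with TG below, and the other 10 overlap.

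The inhibitors of the cyclin-dependent kinases were abundant, with a median of 547 normalized reads per kilobase of exon, and all 3 estimates were below 0, although 2 of the 3 were above 0 without TG 8. Cdkn1b (mm10 chr6:134920399-134925525), which holds cells in a resting state by binding cyclin-dependent kinases, was at 8840, 7150, 7611 and 7302 normalized reads in WT and 4857, 7046, 6943 and 5669 in TG. Every TG retina lay below every WT retina, TG 5 and TG 6 only just so. The mean ± SD was 7725 ± 767 for the WT retinas and 6129 ± 1054 for the TG retinas (n = 4 each). The log2 fold change of -0.35 ± 0.15 (SE) had a 95% interval from -0.66 to -0.032. The limma adjusted p was 0.918, and leaving out each library in turn gave -0.42 to -0.24. Cdkn1a, the inhibitor induced by p53, was at 434, 436, 461 and 640 in WT and 347, 791, 440 and 394 in TG. Its highest and lowest values were both in TG, in TG 5 and TG 2 (-0.058 ± 0.26). Cdkn1c, an imprinted inhibitor of the same family, was at 1046, 1109, 1335 and 1035 in WT and 1084, 979, 1442 and 885 in TG, where TG 6 was the highest and TG 8 the lowest of all (-0.061 ± 0.18). Neither of these 2 genes separated the groups.

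**Figure D4:**
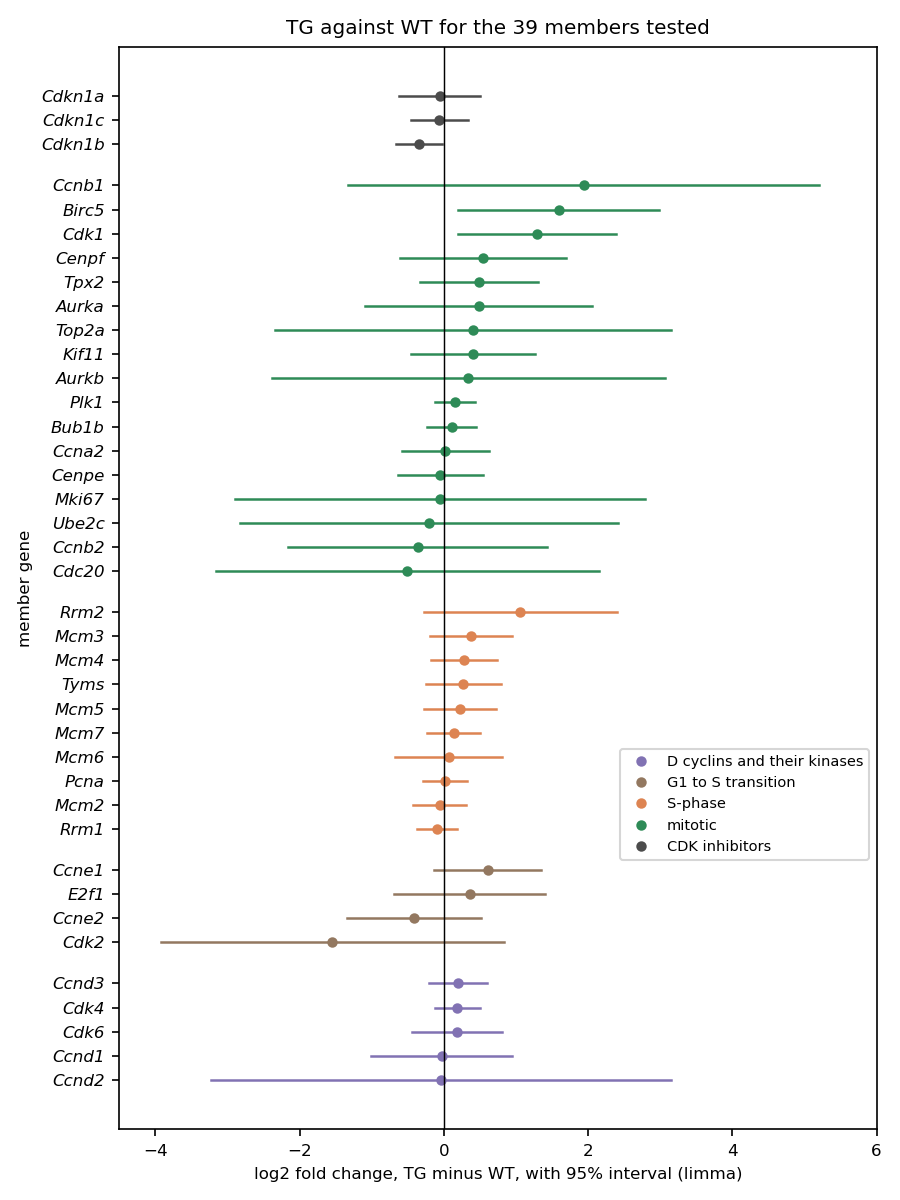
Log2 fold change of TG against WT (x axis) for the 39 genes tested, with 95% intervals from limma, coloured by role. The intervals of Cdk1, Birc5 and Cdkn1b exclude 0 before adjustment, S-phase intervals are short except that of Rrm2, and those of low mitotic genes such as Ccnb1, Mki67 and Cdc20 are wide.

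S-phase and mitotic genes were then compared within each retina, as the mean log2(normalized value + 1) over the 10 S-phase and the 17 tested mitotic genes. The S-phase mean was 8.81, 8.60, 8.92 and 8.52 in WT and 8.96, 9.06, 8.93 and 8.79 in TG. The groups overlapped only through TG 8, and the mean ± SD was 8.71 ± 0.18 in WT and 8.94 ± 0.11 in TG (n = 4 each). The mitotic mean was 6.53, 5.70, 6.09 and 5.39 in WT and 6.62, 7.24, 6.83 and 4.57 in TG. TG 2, TG 5 and TG 6 lay above every WT retina while TG 8 lay below every one, and the means were 5.93 ± 0.49 and 6.32 ± 1.19. S-phase minus mitotic was 2.27, 2.90, 2.82 and 3.12 in WT and 2.34, 1.82, 2.10 and 4.22 in TG. TG 5 and TG 6 had the smallest gaps between the 2 classes and TG 8 the widest. The group means of that gap were 2.78 ± 0.36 in WT and 2.62 ± 1.09 in TG, a difference of -0.16 beside a pooled SD of 0.81. That difference rested on single retinas. It was -0.69 without TG 8, -0.33 without WT 3, -0.068 without TG 2, -0.046 without WT 7, 0.013 without TG 6 and 0.10 without TG 5. It was -0.36 with sex as a term, -0.58 in males alone, -0.096 with eye as a term and -0.49 with medians in place of means over the genes. No p-value is given for a mean over chosen genes.

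The mitotic spread within TG was shared across genes. TG 8 was the lowest TG retina for 11 of the 18 mitotic genes and the lowest of all 8 for 9, ties included, and 7 were at 0 there. TG 6 was the highest of all 8 for 7 genes and TG 5 for 5, while WT 3 was the highest WT retina for 11. The median mitotic log2 fold change, 0.34 over all retinas, moved with the library left out. It was 0.59 without TG 8, with 17 of 17 genes higher in TG. It was 0.042 without TG 5 and 0.040 without TG 6, with 9 of 17 higher in either case. It was 0.29 without WT 3, with 14 of 17 higher. It was 0.20 without TG 2, 0.15 without WT 4, 0.17 without WT 5 and 0.14 without WT 7. TG 8, with the lowest mitotic mean, was from a female, and TG 5, with the highest, was from a male. TG 6 was also from a female. The median was 0.53 with sex as a term, with 16 of 17 higher in TG, and 0.70 in males alone (3 WT and 2 TG).

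**Figure D5:**
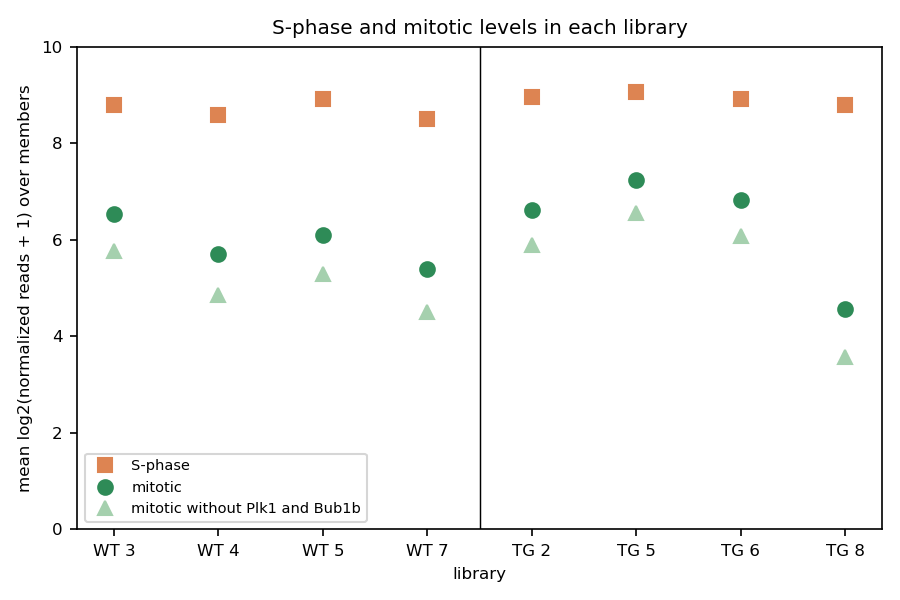
Mean log2(normalized value + 1), on the y axis, over the 10 S-phase genes (squares), the 17 tested mitotic genes (circles) and the mitotic genes without Plk1 and Bub1b (triangles), in each of the 8 retinas. The S-phase means span 8.52 to 9.06, whereas the mitotic means span 4.57 in TG 8 to 7.24 in TG 5.

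Some markers of cell types that can divide or enter the retina, and the lens genes, shared some of their extremes with the mitotic genes. The fibroblast genes (5 of 5 detected, 4 with a higher mean in TG) summed to 257 to 1066 normalized reads in WT, with WT 3 the highest. They summed to 131 in TG 8 against 783 to 1504 in the other TG retinas, with TG 2 the highest, unlike the mitotic mean. The microglia and macrophage genes (10 of 10 detected, 9 with a higher mean in TG) summed to 5444 to 9102 in WT and 6360 to 11809 in TG, where WT 3 and TG 5 were the highest of their groups and TG 8 the lowest TG retina. Cd68, a lysosomal protein of phagocytes, was at 797, 324, 427 and 359 in WT and 969, 1439, 622 and 126 in TG, with WT 3 and TG 5 the highest of their groups and TG 8 the lowest of all, as for the mitotic mean. The monocyte and neutrophil genes (5 of 6 detected, Ly6g at 0 in all 8, 1 with a higher mean in TG) summed to 2643 to 21168 in WT and 1056 to 27015 in TG. Most of that sum was Lcn2, a secreted iron-trafficking protein. It was at 2508, 7167, 20593 and 3314 in WT and 6233, 16450, 26689 and 1015 in TG. TG 8 was its lowest retina, as for the mitotic mean, but WT 3, the highest WT retina for that mean, was its lowest in WT. S100a8 and S100a9, the calprotectin subunits of neutrophils, were highest in WT 4, at 918 and 1024, unlike the mitotic mean. TG 8 was the lowest TG retina for each, at 15.6 and 21.5, as for the mitotic mean. The astrocyte and reactive glia genes (6 of 6 detected, 0 with a higher mean in TG) summed to 38604 to 59694 in WT and 26007 to 56507 in TG, lowest in TG 8 and highest among TG retinas in TG 5. The endothelium and pericyte genes (7 of 7 detected, 0 with a higher mean in TG) summed to 18005 to 27079 in WT and 16337 to 22003 in TG, lowest in TG 6. The lymphocyte genes (6 of 7 detected, Cd3e at 0 in all 8, 3 with a higher mean in TG) summed to 55.2 to 138 in WT and 55.0 to 173 in TG. Mueller glia genes (8 of 8 detected, 6 with a higher mean in TG) ran from 22091 to 78728 in WT and 29856 to 86436 in TG, and were highest in TG 8. Lens genes (7 of 7 detected, 4 with a higher mean in TG) were highest in WT 3, TG 6 and TG 5, at 24518, 20125 and 5182. WT 3 was also the highest WT retina for the mitotic mean, and TG 5 and TG 6 the highest TG retinas. The lens lows differed, at 48.6 in WT 5 and 101 in TG 2, with 483 in TG 8. The part of these cells and of lens tissue in the spread of the mitotic genes was not tested.

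Genes of the same pathways outside the group were read from 3 further lists, and limma, edgeR and DESeq2 each called 0 of them. At an unadjusted p under 0.05, edgeR and DESeq2 each gave Orc6 and Cdc7 and 0 others. Of 40 other replication genes, 17 were higher and 23 lower in TG, with a median log2 fold change of -0.050. An unadjusted p under 0.05 was found for 2 of them (5%, beside 4.64% of all features), and the groups did not overlap for 3 (7.5%, beside 2.53%). Orc6, a subunit of the origin recognition complex, was at 1341, 1217, 1025 and 1118 normalized reads in WT and 598, 888, 1010 and 821 in TG. Cdc7, the kinase that fires replication origins, was at 260, 278, 248 and 339 in WT and 201, 233, 112 and 139 in TG. Both had all TG retinas below all WT retinas, with log2 fold changes of -0.52 ± 0.19 and -0.76 ± 0.28 (SE) that did not pass the test (limma adjusted p = 0.918 for each). Rpa1, which coats single-stranded DNA, was at 11032, 10716, 10883 and 10737 in WT and 11136, 12821, 11768 and 17608 in TG, with every TG retina above every WT retina and TG 8 far above the rest (0.27 ± 0.14). Cdc45, a partner of the replicative helicase, ran from 206 to 415 in WT and from 350 to 481 in TG (0.49 ± 0.24).

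Of 50 other mitotic genes, 48 were tested, with 31 higher and 17 lower in TG, a median of 0.18, 2 at an unadjusted p under 0.05 (4.17%, beside 4.64% of all features) and 0 with groups apart. Melk, a kinase of dividing cells, was at 18.4, 0, 0 and 0 normalized reads in WT and 14.2, 52.8, 17.3 and 7.80 in TG. WT 3 alone among the WT retinas held any Melk reads, and it exceeded 3 of the 4 TG retinas. The Melk estimate of 3.18 was the highest of this list, and with WT values of 0 it depends on the added 1. Ckap2, a spindle protein, was at 32.8, 31.3, 63.4 and 1.95 in WT and 47.0, 78.4, 104 and 70.2 in TG, so that only TG 2 fell within the WT range (1.77 ± 0.81, SE). In the other direction, the estimates were -0.55 ± 0.29 for Smc4, a condensin subunit, and -1.18 ± 0.66 for Spc24, a kinetochore gene. Kif15 and Hmmr were below the minimum.

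Of 27 other genes of the Rb, E2F and checkpoint circuits, 25 were tested, with 9 higher and 16 lower in TG, a median of -0.087 and 0 at an unadjusted p under 0.05. Wee1, which holds Cdk1 inactive, was at 84.9, 94.8, 87.7 and 91.6 normalized reads in WT and 108, 36.1, 27.2 and 46.8 in TG. The WT retinas agreed closely, 3 TG retinas lay well below them and TG 2 lay above (-0.91 ± 0.46, SE). Rbl1, a relative of the retinoblastoma protein, was scarce, at 3.90 to 32.8 in WT and 0.881 to 8.86 in TG (-1.51 ± 1.11). Ccng2, encoding an atypical cyclin tied to arrest, and E2f2 had the smallest p among those with higher TG estimates, at 0.34 ± 0.31 and 0.71 ± 0.72. E2f7 and Cdkn2a were below the minimum.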

How the data were processed

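The authors deposited 1 table of read counts that they had normalized with DESeq2, a signal with a single scaling factor for each library, per the file headers. STAR 2.4.0, SAMtools, Picard, FastQC and the build mm10 (GRCm38) are named in the submitters' processing notes. What counted the reads, with which strand option and annotation, was not given in the sources used here, so reads of overlapping genes could not always be told apart. Whole reads were recovered (100% of values within 0.01 of a whole read). No pair of libraries agreed within sampling noise (lowest chi-square per feature 46.1).

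Group comparisons used limma 3.58.1 in R 4.3.3 with a trended prior variance on log2(value + 1), a minimum mean of 10, Benjamini-Hochberg adjustment over 19798 features and two-sided 95% intervals. On the recovered reads, edgeR 4.0.16 called 2 features and DESeq2 1.42.0 called 16 (adjusted p under 0.05), with 816 and 1057 at an unadjusted p under 0.05. Fits were tested on simulated data. Levels per kilobase used GENCODE M21 exons. Floors and counts cover counting error only.

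The genes and lists were chosen with earlier results of these data known. Per-retina values were printed for 13 genes chosen by name, for those with the smallest p in each role (4 S-phase, 4 mitotic, 2 in each other role), and values or estimates for the 2 with the smallest p of each direction in the lists of other genes.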

Additional observations from a re-analysis of the deposited data

Results flagged for a closer look

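Within the 2 groups of 4 retinas, 80 sets of 4 values were searched for a retina set far apart from the other 3 by Dixon's criterion, and 7 were found, where chance gives about 1 in 20 sets. In WT, Cdk2 was at 90.9 normalized reads in WT 5 against 13.3 to 24.4 in the other 3 retinas, and the Plk1 // Dctn5 row was at 7896 in WT 5 against 6460 to 6538. Mki67 was at 100.3 in WT 3 against 11.0 to 21.1, and Cdkn1a at 639.5 in WT 7 against 434 to 461. In TG, Birc5 was at 29.3 in TG 8 against 86.3 to 97.5. Mcm4 was at 308 in TG 6 against 361 to 371, and Tyms at 482 in TG 6 against 287 to 312. The causes were not tested.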

How the results depend on the processing

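The 39 tested genes gave 808 values under 21 alternatives to scaling, pseudocount, filter, covariates, test and samples. Of these, 739 kept their direction, 69 (in 19 genes) turned sign and 0 were called, with 0.612 as the lowest adjusted p (limma, edgeR or DESeq2). The alternatives without Plk1 and Bub1b and without both WT 3 and TG 6 were chosen after seeing the data. Signs turned in males only for Mki67 (2.01), Ccnd2 (1.71), Ube2c (0.70), Cdc20 (0.60), Ccnd1 (0.56), Ccnb2 (0.26), Cdkn1a (0.24), Ccne2 (0.085), Cdk2 (0.034), Cenpe (0.032), Plk1 (-0.0011), Pcna (-0.080) and Ccna2 (-0.17). They turned with sex as a term for Mki67 (0.72), Ube2c (0.48), Cdc20 (0.25) and Cenpe (0.0072), with a pseudocount of 5 for Mki67 (0.34) and Ube2c (0.17), and without WT 3 and TG 6 for Mki67 (0.63), Ccnd1 (0.37) and Pcna (-0.051). With edgeR they turned for Mki67 (0.90), Ube2c (0.62), Cdc20 (0.25) and Ccnb2 (0.17), and with DESeq2 for Mki67 (0.86), Ube2c (0.61), Cdc20 (0.24), Ccnb2 (0.18) and Cdkn1a (0.00068). With 1 library left out, estimates ran from -0.43 to 1.59 for Aurkb, -0.15 to 0.19 for Ccna2, -0.88 to 0.50 for Ccnb2, -0.56 to 0.26 for Ccnd1, -1.24 to 1.14 for Ccnd2, -1.12 to 0.99 for Cdc20, -0.049 to 0.32 for Cdk6, -0.31 to 0.085 for Cdkn1a, -0.20 to 0.035 for Cdkn1c, -0.19 to 0.17 for Cenpe, -0.14 to 0.012 for Mcm2, -0.12 to 0.18 for Mcm6, -0.91 to 1.48 for Mki67, -0.070 to 0.11 for Pcna, -0.28 to 1.82 for Top2a and -0.82 to 1.25 for Ube2c. Without a change of sign, they ran from 1.31 to 3.20 for Ccnb1, 0.087 to 1.13 for Aurka, 0.35 to 0.78 for Ccne1, 0.14 to 0.71 for E2f1, -0.87 to -0.16 for Ccne2, 0.29 to 0.73 for Tpx2, 0.20 to 0.79 for Cenpf, 0.22 to 0.63 for Kif11, 0.040 to 0.20 for Bub1b, 0.10 to 0.37 for Tyms, 0.12 to 0.37 for Mcm5, 0.010 to 0.22 for Mcm7 and 0.12 to 0.34 for Ccnd3. The causes were not tested. Over all features, 1 was called higher and 1 lower. The number higher was 0 with a pseudocount of 0.5, no filter, a minimum mean of 50, sex as a term or no variance trend, 9 with DESeq2, and 0 to 2 with 1 library left out. The number lower was 3 in males only, 7 with DESeq2, and 1 to 2 with 1 library left out. No paired analysis was possible because the labels pair no WT retina with a TG retina. With 4 retinas a group and counts under 100 for most mitotic genes, the intervals leave differences of several fold undetectable for them.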

Other observations

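The row of Spc25, a kinetochore gene in the list of other mitotic genes, was chosen after its values were seen. It was at 6669, 6377, 3291 and 15443 normalized reads in WT and 10136, 5073, 8597 and 16314 in TG, far above the scarce mitotic genes. GENCODE M21 places no other gene in its interval (mm10 chr2:69193896-69206213).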
